A study of Mus musculus with 12 samples.

Results

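Small leucine-rich proteoglycans are secreted matrix proteins of connective tissue, built around a curved stretch of leucine-rich repeats and in many cases carrying sulfated sugar chains. The 8 genes described here, Dcn, Bgn, Lum, Fmod, Aspn, Ogn, Prelp and Podn, were chosen by name as members of this family, and all 8 were measured, of 18193 genes in the table. Each gene was read from the probe sets (groups of short probes against 1 transcript) that the platform annotation pairs with its symbol alone, 19 in all, and the 1 with the highest mean level stands for the gene.

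The proteins bind the surface of collagen fibrils and set how thick and how evenly spaced the fibrils grow, and in mouse skin loss of decorin gives irregular fibrils and fragile skin. Decorin, biglycan and asporin form 1 branch of the family, lumican, fibromodulin and PRELP form another, and osteoglycin and podocan belong to further ones. Decorin and biglycan carry chondroitin or dermatan sulfate, while lumican and fibromodulin can carry keratan sulfate. Several of them also hold growth factors such as TGF-beta in the matrix or act on receptors at the cell surface.

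RNA was measured on 12 Affymetrix mouse expression arrays of dermal fibroblasts, 1 array per sample, in 3 groups of 4. The Pap group is papilloma-associated skin of InvEE mice, a papilloma being an outgrowth of the epidermis. The InvEE group is inflamed skin of such mice, and the WT group is normal skin of wild-type mice. InvEE mice express an activated MEK1 kinase from the involucrin promoter, which is active in differentiating keratinocytes and not in fibroblasts. All groups were back skin of male mice 7 weeks of age that carried a PDGFRα-H2B-eGFP allele, and the GFP-positive cells were sorted, so that every group was selected by the activity of the Pdgfra locus. Whether replicate arrays stem from different animals is not given in the labels, so the p-values rest on a spread between samples that may be technical. Array Pap 4 correlated least with its own group (mean r = 0.893 across probe sets), array WT 4 was lowest among the WT arrays (mean r = 0.925), and both had the narrowest spread of deposited values, so the counts of calls among the 8 genes and in the lists of related genes are also given without them. The poly-A spike level was 10.99 ± 1.16 in Pap, 8.23 ± 0.32 in InvEE and 10.54 ± 1.27 in WT arrays (log2, SD, n = 4), and the 3′ minus 5′ difference of Gapdh, which grows as RNA is degraded, was 2.80 ± 0.66 in Pap, 2.15 ± 0.83 in InvEE and 1.84 ± 0.31 in WT arrays. Their part in the results was not tested beyond the fits with each as a covariate. The spike levels of InvEE arrays (7.92 to 8.68) lay below all Pap (9.83 to 12.57) and WT arrays (9.27 to 12.29). In comparisons with InvEE, the fit with that covariate therefore cannot tell spike level and group apart.

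The labelled cell type was checked against its markers. Col1a1, Col1a2, Col3a1, Thy1 and Pdgfra, the 5 of 6 listed markers that were measured, had a mean log2 level of 13.20 to 13.43 in Pap, 12.99 to 13.20 in InvEE and 12.97 to 13.16 in WT arrays. Of these, Pdgfra passed the test in Pap against WT (0.93 on the log2 scale). The check is a weak one, since Pdgfra is the locus used for sorting and Col1a1, Col1a2 and Col3a1 lay near the top of the scale. Levels below are normalized log2 values of 1 probe set and are compared between groups, never between genes. A difference is called where limma gives an adjusted p under 0.05 over all 18193 genes, and differences carry their standard error (SE) from that fit. In sorted bulk samples, fewer cells of a type and less RNA per cell cannot be told apart.

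Relative to WT skin, fibroblasts of papilloma-associated skin had less Prelp and less Podn RNA, by 2.58-fold and 2.49-fold. Relative to inflamed InvEE skin they had more Bgn RNA, by 1.48-fold. Of the 8 genes 2 were called in Pap against WT, both lower, where 9.65% of all genes were called, 4.85% higher and 4.80% lower. An unadjusted p under 0.05 was found for 5 of the 8 there, where 22.4% of all genes had one. In InvEE against WT limma called 0 of the 8, where 0.533% of all genes were called (0.258% higher and 0.275% lower), and 2 of the 8 had an unadjusted p under 0.05, where 15.6% of all genes did. In Pap against InvEE 1 of the 8 was called, higher, where 6.71% of all genes were called, 3.67% higher and 3.04% lower. There 2 of the 8 had an unadjusted p under 0.05, where 26.5% of all genes did. Without arrays WT 4 and Pap 4, 2 were called in Pap against WT (Bgn and Podn), 0 in InvEE against WT and 2 in Pap against InvEE (Bgn and Lum). Of all 18193 genes that fit called 1937, 219 and 1770 in these comparisons, beside 1756, 97 and 1221 with all arrays. The median difference of the 8 genes was 0.05 in Pap against WT, -0.25 in InvEE against WT and 0.04 in Pap against InvEE, beside medians of all genes of 0.04, -0.09 and 0.12 (log2). In Pap against WT 4 of the 8 differences were positive and 4 negative.

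**Figure D1:**
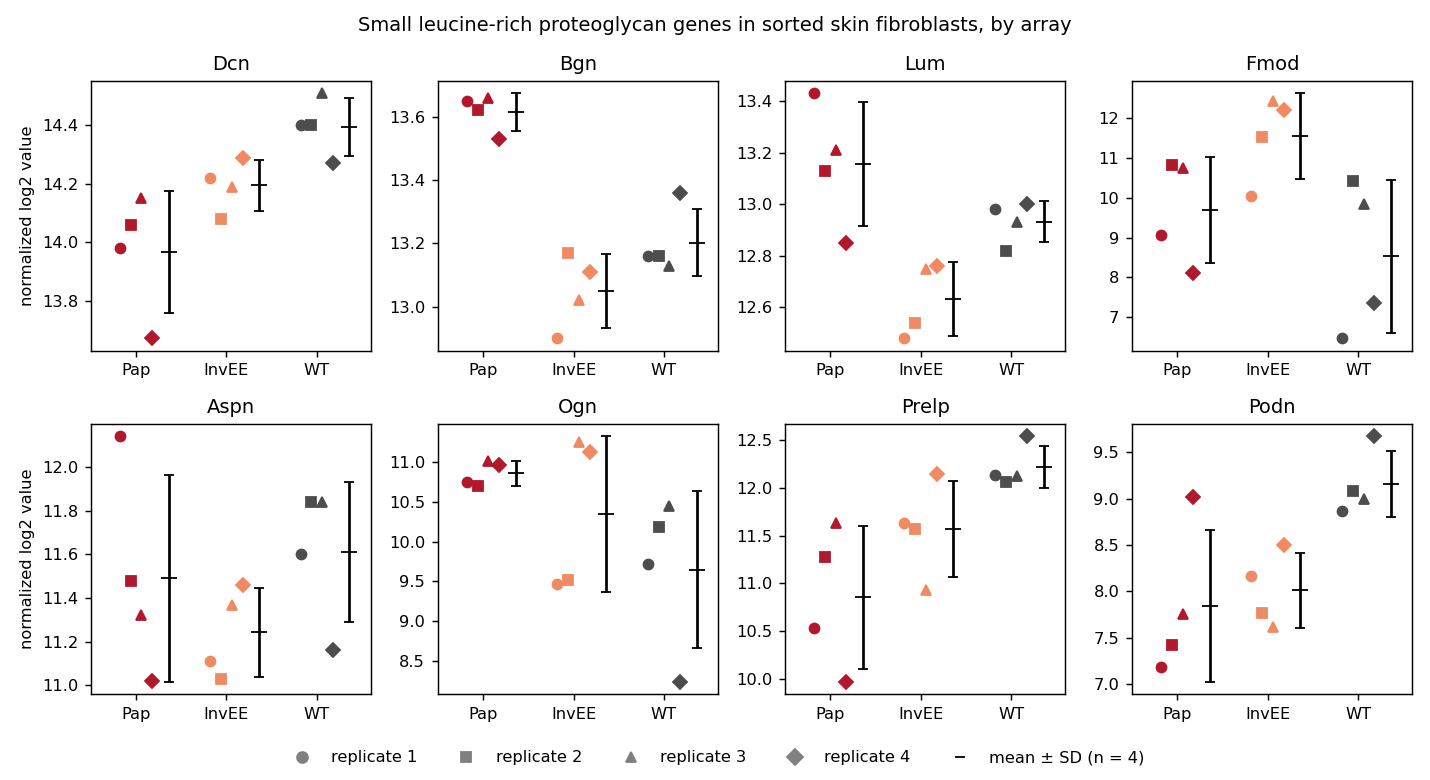
Normalized log2 value of each of the 8 genes on every array, with Pap, InvEE and WT from left to right in each panel; symbols mark the replicate number, and bars at the right of each group show the mean and SD (n = 4), on an axis of its own per gene. All 4 Bgn values of Pap (13.53 to 13.66) lie above every InvEE and WT value, all 4 Prelp values of Pap (9.97 to 11.63) lie below every WT value, and Fmod spans 6.47 to 10.43 within WT.

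The letters before the transcription start are shown for the 3 genes with a called difference, since Prelp and Podn, which were both lower in Pap, and Bgn, which was not, can be set side by side in them. They are the 250 bases before a RefSeq transcript start on mouse build GRCm38.p6, 5′ to 3′ on the gene's own strand, and capitals mark matches to 1 of 5 motifs searched on both strands: the TATA box (letters TATAAA), the CCAAT box (letters CCAAT), the GC box (letters GGGCGG), the AP-1 site (letters TGANTCA) and the SMAD element (letters CAGAC). Overlapping matches run together.

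Bgn, chrX:73483351-73483600, plus strand: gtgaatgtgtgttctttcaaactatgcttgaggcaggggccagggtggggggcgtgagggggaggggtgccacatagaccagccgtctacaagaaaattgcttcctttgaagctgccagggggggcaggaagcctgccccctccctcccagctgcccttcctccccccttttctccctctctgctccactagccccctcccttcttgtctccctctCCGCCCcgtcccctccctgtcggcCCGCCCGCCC

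Prelp, chr1:133921402-133921651, minus strand: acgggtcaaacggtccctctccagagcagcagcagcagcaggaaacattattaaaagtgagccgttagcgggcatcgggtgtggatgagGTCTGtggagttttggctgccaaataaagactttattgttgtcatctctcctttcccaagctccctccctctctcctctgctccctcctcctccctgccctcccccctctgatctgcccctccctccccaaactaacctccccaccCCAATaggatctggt

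Podn, chr4:108031955-108032204, minus strand: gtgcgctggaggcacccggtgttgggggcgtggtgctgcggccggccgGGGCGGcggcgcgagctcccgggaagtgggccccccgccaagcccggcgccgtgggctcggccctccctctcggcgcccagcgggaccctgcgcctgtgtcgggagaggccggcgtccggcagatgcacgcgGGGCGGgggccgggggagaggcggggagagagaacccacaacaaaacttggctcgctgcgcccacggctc

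The window of Bgn held 3 GC box matches and none to the other motifs, in letters that were 64.4% G or C, and that of Podn held 2 GC box matches, at 78.0% G or C. The window of Prelp held 1 CCAAT box and 1 SMAD element match, at 55.6%. Prelp and Podn, each called lower in Pap against WT, shared no motif of these 5 in the windows shown, while Podn and Bgn shared the GC box. Of all 32851 promoter windows of the same length, 32.7% held a GC box, 33.8% a CCAAT box, 42.2% a SMAD element, 12.4% a TATA box and 6.75% an AP-1 site, and the median window was 52.4% G or C. Podn has a second listed start, whose window held no match. The tables used here held windows for 6 of the 8 genes. That of Aspn held 2 TATA box matches and 1 CCAAT box match, at 30.0% G or C. That of Ogn held 2 overlapping TATA box matches, at 42.0%, and that of Fmod 2 SMAD element matches, at 51.2%. Such matches describe the letters and are not binding sites.

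Prelp encodes PRELP, which binds collagen and, through a basic stretch at its start, heparan sulfate of basement membranes. Its log2 values were 10.53, 11.28, 11.63 and 9.97 in Pap arrays, against 12.14, 12.06, 12.13 and 12.54 in WT arrays. Every Pap array was below every WT array, and Pap 4 was the lowest and WT 4 the highest of them. The difference was -1.37 ± 0.34 (SE, adjusted p = 0.0262, 95% interval -2.12 to -0.62). The InvEE arrays, at 11.63, 11.57, 10.93 and 12.15, lay between and overlapped both other groups, at -0.65 ± 0.34 against WT (adjusted p = 0.379). Pap arrays differed from InvEE arrays by -0.72 ± 0.34 (adjusted p = 0.202), which was not past the threshold either. The other probe set of Prelp gave a smaller difference of the same sign in Pap against WT, -0.81 ± 0.23, which was called over all probe sets (adjusted p = 0.0494).

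The Prelp call in Pap against WT was close to the threshold. It was lost without Pap array 1 (-1.26, adjusted p = 0.0699) or without any 1 WT array (-1.42 to -1.26, adjusted p = 0.0506 to 0.0621) and without arrays WT 4 and Pap 4 (-0.97, adjusted p = 0.0896). With the Gapdh 3′ minus 5′ difference as a covariate it was -0.86 (adjusted p = 0.208), and the deviations of Prelp from its group means correlated at -0.636 with those of the Gapdh measure over the 12 arrays.

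Podn encodes podocan, which binds type I collagen and is known in mouse arteries as a brake on smooth muscle cell growth. Its log2 values were 7.18, 7.42, 7.75 and 9.02 in Pap arrays, against 8.87, 9.08, 8.99 and 9.67 in WT arrays. Pap 4 reached into the WT range, and the other Pap arrays were below it. The difference was -1.31 ± 0.36 (SE, adjusted p = 0.0394, 95% interval -2.10 to -0.53), and without Pap 4 it was -1.71 (adjusted p = 0.00189). In InvEE arrays the values were 8.16, 7.76, 7.61 and 8.50, all below every WT array, with a difference of -1.15 ± 0.36 that was not called (adjusted p = 0.172). Pap and InvEE arrays overlapped, at -0.17 ± 0.36 (adjusted p = 0.787, 95% interval -0.95 to 0.62), and the sign of that difference turned when arrays were scaled on ribosomal protein genes (0.23) or when Pap 1 was left out (0.06).

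Podn has 1 probe set, so no second reading bears on it. Its call in Pap against WT was lost without Pap 1, 2 or 3 (-1.28 to -1.09, adjusted p = 0.0804 to 0.104), without any 1 WT array (-1.41 to -1.14, adjusted p = 0.0617 to 0.0931) and without InvEE 1 or 2 (-1.31 each, adjusted p = 0.0569 and 0.0551). In InvEE against WT a call appeared without Pap 4 (-1.15, adjusted p = 0.0454).

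Bgn encodes biglycan, the closest relative of decorin, which binds collagen and TGF-beta and, as a free protein, acts on toll-like receptors of macrophages. Its log2 values were 13.65, 13.62, 13.66 and 13.53 in Pap arrays, against 12.90, 13.17, 13.02 and 13.11 in InvEE arrays. The Pap arrays lay close together and above every InvEE array. The difference was 0.56 ± 0.12 (SE, adjusted p = 0.0180, 95% interval 0.30 to 0.83). Both other probe sets of Bgn were called too, at 0.56 ± 0.14 (adjusted p = 0.0357) and 0.82 ± 0.16 (adjusted p = 0.0126). The call on the probe set used was lost without InvEE 1 (0.51, adjusted p = 0.0718), on the values as deposited (0.50, adjusted p = 0.0551) and with the spike level as a covariate (0.53, adjusted p = 0.168).

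Against WT arrays, at 13.16, 13.16, 13.13 and 13.36, the Pap arrays were also higher without overlap, by 0.41 ± 0.12, which did not pass the threshold (adjusted p = 0.0551). Of the WT arrays, WT 4 was the highest. The Pap difference passed without WT 4 (0.46, adjusted p = 0.0401) or Pap 4 (0.44, adjusted p = 0.0436), and was 0.49 without both (adjusted p = 0.0231). InvEE and WT arrays overlapped, with a difference of -0.15 ± 0.12 (adjusted p = 0.549, 95% interval -0.42 to 0.11).

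Dcn encodes decorin, the main such proteoglycan of the dermis, named for the way it decorates collagen fibrils. Its log2 values were 13.98, 14.06, 14.15 and 13.67 in Pap arrays, against 14.40, 14.40, 14.51 and 14.27 in WT arrays. All Pap arrays were below all WT arrays, yet the difference of -0.43 ± 0.14 did not pass the threshold (adjusted p = 0.0769). InvEE arrays, at 14.22, 14.08, 14.19 and 14.29, lay between and overlapped both groups, with differences of -0.20 ± 0.14 against WT (adjusted p = 0.500) and, for Pap against InvEE, -0.23 ± 0.14 (adjusted p = 0.296). The last of these turned to 0.16 when arrays were scaled on ribosomal protein genes. The probe set used lay near the top of the deposited scale, whose highest value on any array was 14.955.

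The second probe set of Dcn lay far lower and moved further. It had log2 values of 6.49, 7.47, 7.29 and 8.22 in Pap arrays, against 9.17, 8.68, 8.07 and 8.82 in WT arrays, a difference of -1.32 ± 0.37 that was called over all probe sets (adjusted p = 0.0468). Pap 4 overlapped WT 3, and the other Pap arrays were below every WT array. Both readings of Dcn had the same sign. For InvEE against WT it gave -1.01 ± 0.37 (adjusted p = 0.238).

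Aspn encodes asporin, a relative of decorin that binds collagen at the same site and holds back TGF-beta signalling. The Aspn log2 values were 12.14, 11.48, 11.32 and 11.02 in Pap arrays, 11.11, 11.03, 11.37 and 11.46 in InvEE arrays and 11.60, 11.84, 11.84 and 11.16 in WT arrays. All groups overlapped. The difference was -0.12 ± 0.24 for Pap against WT (95% interval -0.64 to 0.40), and it turned to 0.09 when arrays were scaled on ribosomal protein genes. It was -0.37 ± 0.24 for InvEE against WT (adjusted p = 0.464) and 0.25 ± 0.24 for Pap against InvEE (adjusted p = 0.514). None of these passed the threshold.

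Lum encodes lumican, a keratan sulfate proteoglycan of cornea and skin whose loss in mice gives cloudy corneas and fragile skin. Its log2 values were 13.43, 13.13, 13.21 and 12.85 in Pap arrays, against 12.48, 12.54, 12.75 and 12.76 in InvEE arrays. Every Pap array was above every InvEE array, by 0.52 ± 0.15 on average, just short of the threshold (adjusted p = 0.0555). Without Pap 4 the difference was 0.62 and called (adjusted p = 0.0193). WT arrays, at 12.98, 12.82, 12.93 and 13.00, lay above every InvEE array, where the InvEE difference was -0.31 ± 0.15 (adjusted p = 0.341). They overlapped the Pap arrays, with WT 2 below all of those, and the Pap difference was 0.22 ± 0.15 (adjusted p = 0.435).

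Fmod encodes fibromodulin, which binds the same region of collagen as lumican and helps lysyl oxidase to cross-link fibrils. The Fmod log2 values were 9.06, 10.82, 10.75 and 8.12 in Pap arrays, 10.04, 11.53, 12.42 and 12.19 in InvEE arrays and 6.47, 10.43, 9.85 and 7.36 in WT arrays. The WT arrays split into a high and a low pair, and InvEE 1 reached into the WT range. The InvEE difference against WT was 3.02 ± 0.91, or 8.09-fold, the furthest of any of the 8 genes in any comparison, and it was not called (adjusted p = 0.153, 95% interval 1.04 to 4.99). It was 0.70 with the spike level as a covariate (adjusted p = 0.807), 1.80 as the mean of all probe sets, and between 2.33 (without WT 1) and 3.65 (without WT 2) with 1 array left out. The 5 other probe sets gave 0.94 to 1.86 in the same direction, 0 of them called (adjusted p = 0.121 to 0.211), although each had an unadjusted p between 0.00262 and 0.0129. All Fmod probe sets but 1, the one used included, carry a suffix for probes that may match other transcripts. The exception gave 1.44 ± 0.49 (adjusted p = 0.211). Pap arrays differed from InvEE arrays by -1.86 ± 0.91 (adjusted p = 0.212) and from WT arrays by 1.16 ± 0.91 (adjusted p = 0.513). The first of these turned to 0.91 in the fit with the spike covariate.

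Ogn encodes osteoglycin, also called mimecan, which takes part in fibril assembly in skin and cornea. Ogn had log2 values of 10.75, 10.70, 11.01 and 10.97 in Pap arrays, against 9.72, 10.19, 10.45 and 8.24 in WT arrays. The Pap arrays were close together and above every WT array, by 1.21 ± 0.51, which was not called (adjusted p = 0.177). The second probe set gave 0.58 ± 0.54, with overlapping groups, 10.05, 10.60, 10.77 and 9.22 in Pap arrays against 9.76, 9.87, 10.58 and 8.10 in WT arrays. InvEE arrays fell into a low pair, InvEE 1 and 2 at 9.47 and 9.52, and a high pair, InvEE 3 and 4 at 11.25 and 11.13, with a difference of 0.69 ± 0.51 against WT (adjusted p = 0.516). The difference of Pap against InvEE, 0.52 ± 0.51 (adjusted p = 0.520), was -0.04 on the second probe set.

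**Figure D2:**
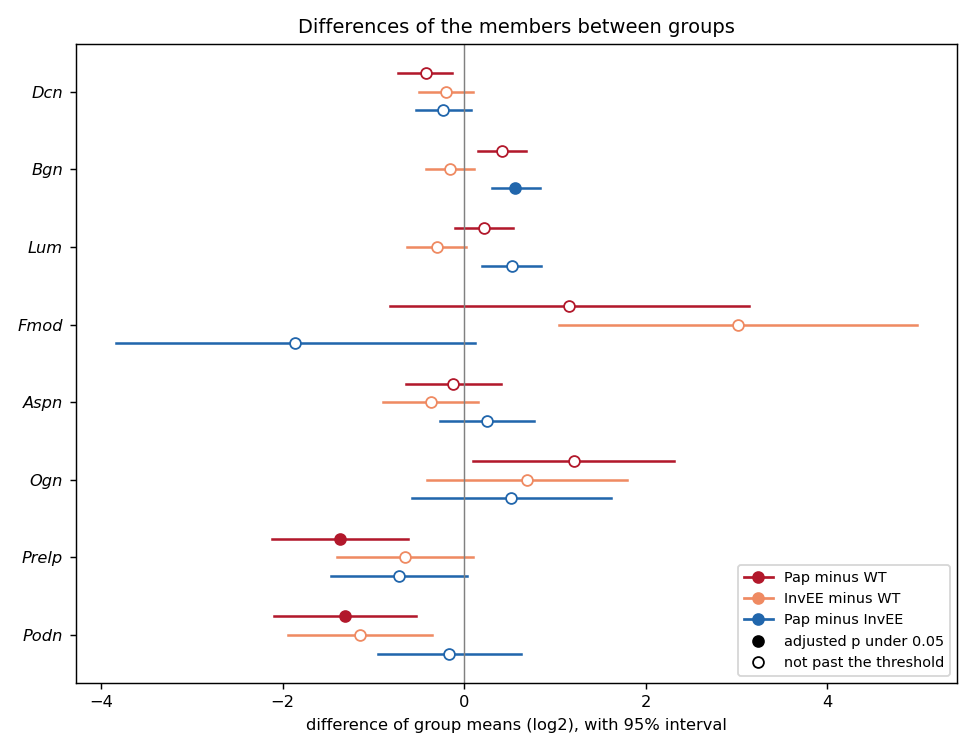
Difference of group means on the log2 scale for each of the 8 genes, with its 95% interval from the moderated fit, for Pap minus WT, InvEE minus WT and Pap minus InvEE; filled points have an adjusted p under 0.05. The 3 filled points are Prelp (-1.37) and Podn (-1.31) in Pap minus WT and Bgn (0.56) in Pap minus InvEE, and the intervals of Fmod are the widest.

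The groups can also be compared by overlap. Pap and WT arrays did not overlap for 4 of the 8 genes, Bgn and Ogn higher and Dcn and Prelp lower, where 13.8% of all genes did not overlap (7.22% higher and 6.56% lower). InvEE and WT arrays did not overlap for Lum and Podn, both lower, 2 of 8 where the share of all genes was 15.3% (5.07% higher and 10.2% lower). Pap and InvEE arrays did not overlap for Bgn and Lum, both higher, 2 of 8 where the share was 21.1% (14.5% higher and 6.66% lower).

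**Figure D3:**
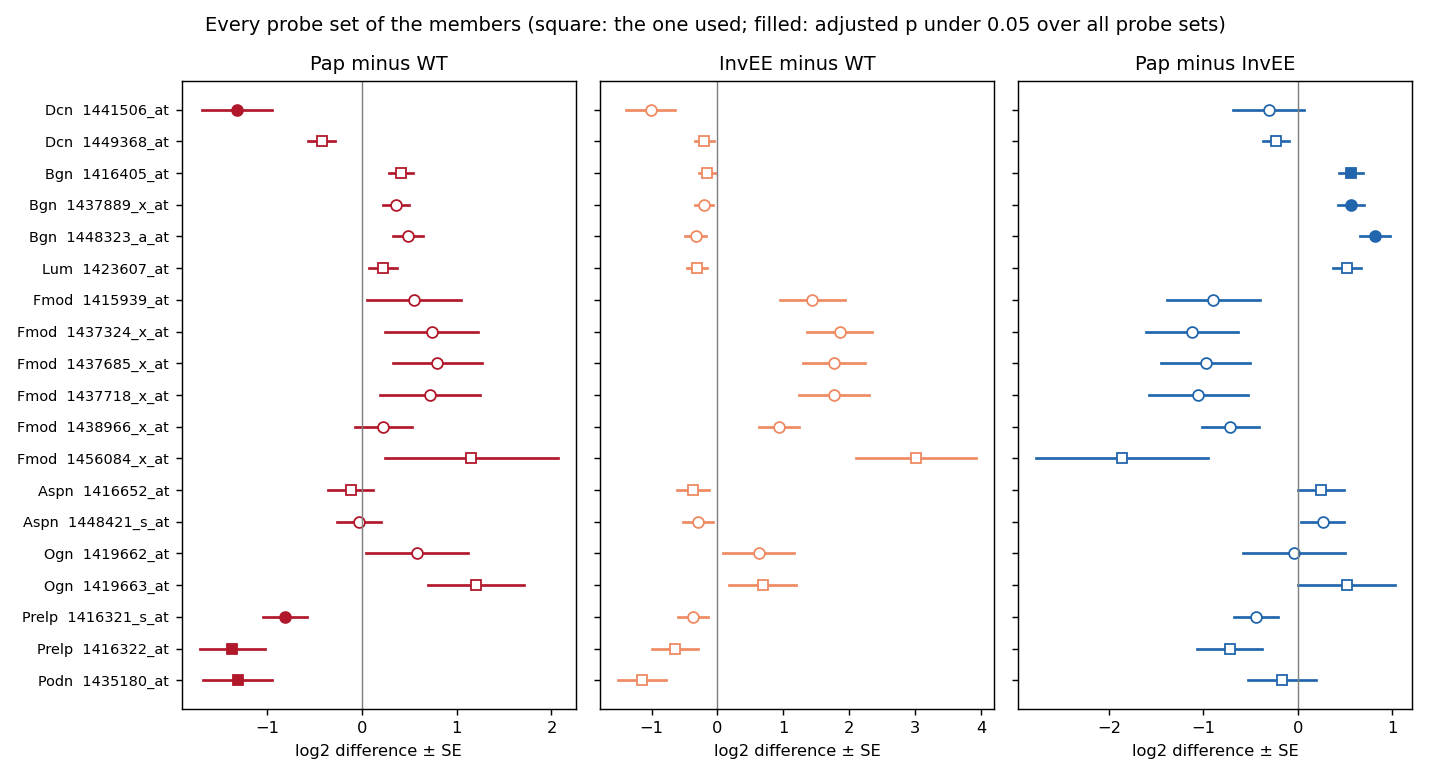
Log2 difference ± SE of all 19 probe sets of the 8 genes in Pap minus WT, InvEE minus WT and Pap minus InvEE; squares are the probe sets used, circles the others, and filled symbols passed an adjusted p under 0.05 over all probe sets. The 3 Bgn probe sets (0.56, 0.56 and 0.82) are filled in Pap minus InvEE, both Prelp probe sets (-0.81 and -1.37) are filled in Pap minus WT, and all 6 Fmod probe sets lie above 0 in InvEE minus WT (0.94 to 3.02).

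Across the 12 arrays Dcn and Prelp had the highest correlation (Pearson r = 0.868, n = 12 arrays), and 0.652 for deviations from the group means. Bgn and Lum followed (r = 0.820, and 0.469 for deviations). At the other end were Dcn and Bgn (r = -0.572) and Ogn and Prelp (r = -0.548), whose deviations correlated at -0.037 and -0.205. Arrays share their group, and depth of signal and RNA quality act on all genes of an array at once, so these values describe the arrays.

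Among all other genes, the pattern most like that of Dcn over the 12 arrays was that of Creb5, a transcription factor of the CREB family (r = 0.975), and then Tspan4, a tetraspanin (r = 0.965). For Prelp these were Hspb8, a small heat shock protein (r = 0.973), and Nudc, a dynein-associated protein (r = 0.965), and for Bgn they were Ifit1, an interferon-induced gene (r = 0.982), and Htr5a, a serotonin receptor (r = 0.971). Podn was nearest to Il16, a cytokine (r = 0.958), and Arrdc1, an arrestin-domain protein (r = 0.945). Lum was nearest to Slc22a30 (r = 0.924) and Tram2 (r = 0.921), Fmod to Klhl11 (r = 0.941) and Tmed5 (r = 0.932), Aspn to Nagk (r = 0.957) and Ndfip1 (r = 0.919), and Ogn to Il1rl2 and Erlin2 (r = 0.912 each). These genes were picked as the highest of all other genes over 12 arrays that share 3 groups. The r values are raised by that selection, and shared regulation was not tested. The mean levels of Htr5a and Slc22a30 were 5.10 and 4.65, under the limit of 6.163 below which a level is called dim here, the lowest 40% of probe-set means.

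Most of these genes sit in short runs on the chromosome beside other family members, in the gene order of the mouse assembly GRCm38.p6: Dcn, Lum, Kera and Epyc in 1 run, Ecm2, Aspn, Omd and Ogn in another, and Optc, Prelp and Fmod in another. Kera, next to Lum and coding for keratocan, a keratan sulfate proteoglycan best known from cornea, had log2 values of 10.03, 8.92, 10.65 and 7.64 in Pap arrays, against 5.61, 5.55, 5.03 and 4.25 in WT arrays. It was higher in every Pap array and rose by 4.20 ± 0.55 (adjusted p = 0.000512), with a dim mean in WT, so that the size depends on how background was treated. InvEE arrays, at 7.36, 7.94, 8.31 and 7.80, lay above every WT array, with a difference of 2.74 ± 0.55 that was not called (adjusted p = 0.0519). They overlapped the Pap arrays through Pap 4, and Pap differed from InvEE by 1.46 ± 0.55 (adjusted p = 0.122).

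Ecm2, next to Aspn and coding for a matrix protein with leucine-rich repeats, went the other way. It had log2 values of 5.93, 4.59, 6.60 and 4.74 in Pap arrays, against 8.24, 7.63, 7.46 and 8.34 in InvEE arrays and 9.01, 9.19, 8.90 and 9.58 in WT arrays. The Pap arrays overlapped neither other group. It fell by 3.70 ± 0.40 in Pap against WT (adjusted p = 0.000167) and by 2.45 ± 0.40 in Pap against InvEE (adjusted p = 0.00397), and its other probe set was called in both, at -4.52 and -3.42. Both differences have a dim Pap mean. Omd, between Aspn and Ogn, differed by -0.04 ± 0.97 in Pap against WT (adjusted p = 0.987), with Pap 4 at 3.60 and the other Pap arrays between 8.59 and 8.78. Prelp and Fmod, which are neighbours, had opposite signs in each comparison with WT, and of each pair only Prelp in Pap was called. Of the 7 measured genes in the list of other family members, 1 was higher and 1 lower in Pap against WT, these same Kera and Ecm2, and the list's median was 0.15 beside 0.04 for all genes. Without WT 4 and Pap 4 the counts were again 1 higher and 1 lower.

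**Figure D4:**
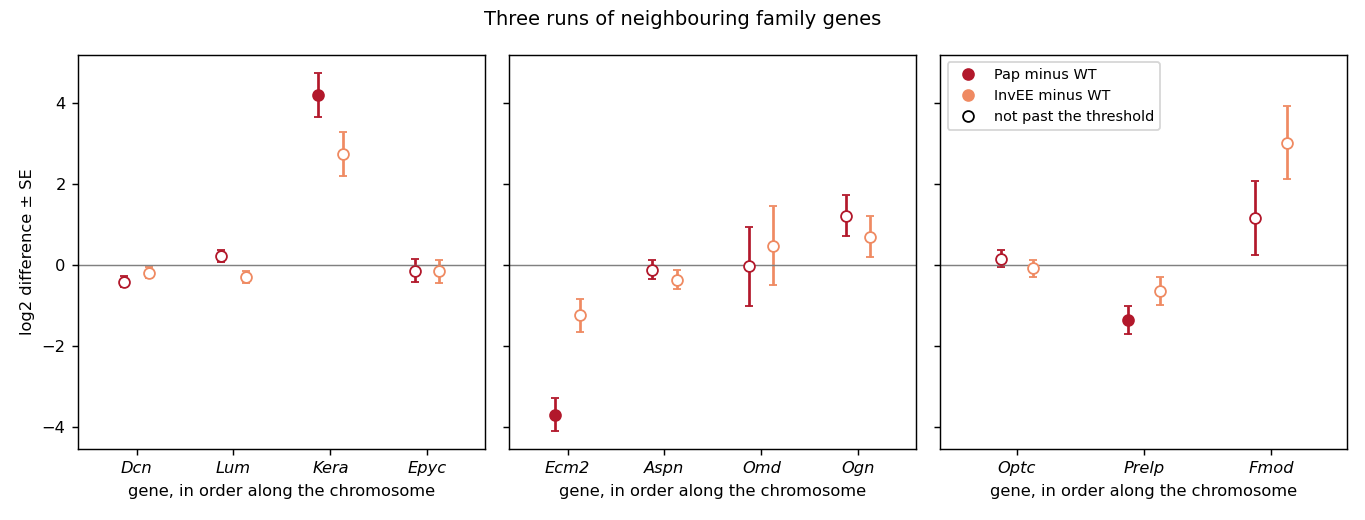
Log2 difference ± SE in Pap minus WT and InvEE minus WT for the family genes of each of the runs of neighbouring genes, in their order along the chromosome and not to distance; filled points passed an adjusted p under 0.05. Kera (4.20) stands above and Ecm2 (-3.70) below neighbours such as Lum (0.22) and Aspn (-0.12) in Pap minus WT, and Prelp (-1.37) and Fmod (1.16) lie on opposite sides of 0.

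The sugar chains of these proteins are made by enzymes that add a linker to the core protein, extend the chain and sulfate it. The lists of such genes and of partners below were chosen with earlier results of these data known. Of 21 measured genes for the linker and for chondroitin or dermatan chains, 5 were higher and 1 lower in Pap against WT, with a median of 0.47 beside 0.04 for all genes. Csgalnact1, which starts the chondroitin chain, rose by 4.46 ± 0.38 to a mean of 10.64 ± 0.31 in Pap arrays, against 6.17 ± 0.62 in WT arrays (log2, SD, n = 4; adjusted p = 2.6e-05), and its other probe set gave 4.30, called. Chsy1, which extends the chain, rose by 2.37 ± 0.25 (adjusted p = 0.000124), and the sulfotransferases Chst11 and Chst15 rose by 2.04 ± 0.39 and 1.88 ± 0.32. The 1 lower gene was Chpf, a partner of the chain polymerases, at -1.29 ± 0.37 (adjusted p = 0.0486), called in 6 of 21 alternative fits.

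In Pap against InvEE 7 of the 21 were higher and 0 lower by limma, with a median of 0.62 beside 0.12, led by Csgalnact1 (3.99 ± 0.38) and Chpf2 (1.21 ± 0.18; its other probe set gave 0.24, not called). Between InvEE and WT 1 was higher, Chsy1, by 1.32 ± 0.25 (adjusted p = 0.0421), a call that held in 8 of 21 alternative fits (adjusted p up to 0.268). Without arrays WT 4 and Pap 4 the counts were 5 higher and 0 lower in Pap against WT and 8 higher in Pap against InvEE.

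Of 10 genes for keratan chains, 1 was higher in Pap against WT, Chst2, a sulfotransferase (2.05 ± 0.43, adjusted p = 0.00999), whose 2 other probe sets gave -0.16 and 0.31, not called. In Pap against InvEE 1 was higher, B4galt1, a galactosyltransferase, by 0.81 ± 0.20 (adjusted p = 0.0318). The medians were 0.06 and 0.23 beside 0.04 and 0.12 for all genes. Of 7 measured genes for sulfate uptake and activation, 1 was lower in Pap against WT, Slc26a1, a sulfate transporter (-1.05 ± 0.29, adjusted p = 0.0383), dim in Pap arrays. That call held in 7 of 21 alternative fits (adjusted p up to 0.149) and was lost without WT 4 and Pap 4. Without those arrays the keratan counts were 1 higher in Pap against WT and 2 higher in Pap against InvEE. Limma called 0 genes of both lists in InvEE against WT, where 0 of the 10 and 3 of the 7 had an unadjusted p under 0.05.

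Type I collagen and its partners make the fibrils that many of these proteins bind. Of 16 fibrillar collagens and fibril partners, 10 were higher and 1 lower in Pap against WT, with a median of 0.90 beside 0.04 for all genes. They were led by Col12a1, a collagen of the fibril surface, by 6.02 ± 0.15 (adjusted p = 7.89e-10), Col6a3, of the microfibrils that biglycan and decorin bind, by 1.91 ± 0.17 (adjusted p = 2.91e-05), and Col5a3 and Col11a1, minor chains inside fibrils, by 2.50 ± 0.28 and 4.33 ± 0.50. The lower gene was Tnxb, tenascin X, which links fibrils and binds decorin (-3.57 ± 0.59, adjusted p = 0.00258). Col1a1 and Col1a2, the chains of type I collagen, differed by 0.03 ± 0.13 and 0.03 ± 0.12 and were not called. Their means were 14.48 and 14.54 in Pap and 14.45 and 14.51 in WT arrays, near the top of the scale. A rise could hardly show there, so these values do not tell whether type I collagen RNA changed. In InvEE against WT 3 of the 16 were higher and 0 lower, with a median of -0.13 beside -0.09, and in Pap against InvEE 8 were higher and 1 lower. Without WT 4 and Pap 4 the counts were 9 higher and 1 lower in Pap against WT, 2 higher in InvEE against WT, and 8 higher and 1 lower in Pap against InvEE.

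Of 14 proteases known to cleave members of the family, 4 were higher in Pap against WT and 0 lower by limma, with a median of 0.33 beside 0.04. Mmp13, a collagenase, rose by 7.59 ± 0.29 with a dim WT mean. Adamts4, an aggrecanase that also cuts biglycan and fibromodulin, rose by 3.51 ± 0.42 (adjusted p = 0.000304), Mmp9, a gelatinase, by 1.75 ± 0.27 and Tll1, a relative of the procollagen C-proteinase that trims biglycan, by 1.55 ± 0.31, also dim in WT. In Pap against InvEE 6 were higher, Mmp14, a membrane-bound collagenase that cuts lumican, among them (1.02 ± 0.17, adjusted p = 0.00462). Limma called 0 of the 14 in InvEE against WT, where 5 had an unadjusted p under 0.05. Without WT 4 and Pap 4, 4 proteases were higher in Pap against WT and 7 in Pap against InvEE.

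Of 20 measured growth factors and receptors that members of the family bind, 2 were higher and 5 lower in Pap against WT, with a median of -0.25 beside 0.04. Ccn4, a matricellular Wnt target that binds decorin and biglycan, rose by 3.72 ± 0.35 (adjusted p = 5.07e-05), and Cd44, the hyaluronan receptor, rose by 2.30 ± 0.49. Bmp4, a ligand that biglycan binds, fell by 2.96 ± 0.24 (adjusted p = 1.73e-05), Tgfb2 by 1.08 ± 0.23, Egfr, a receptor that decorin binds, by 1.04 ± 0.25 and Lrp1, an endocytic receptor of decorin, by 0.79 ± 0.18. In Pap against InvEE Ccn4 (2.80 ± 0.35) and Tgfb3 (1.45 ± 0.34) were higher and Bmp4 was lower (-3.24 ± 0.24). For InvEE against WT the differences of Egfr, Tgfb2 and Lrp1 were -1.20, -0.83 and -0.49 and that of Bmp4 was 0.28, none of them called. Egfr differed by 0.16 ± 0.25 in Pap against InvEE. Of 15 other proteoglycans, large or at the cell surface, 4 were higher and 1 lower in Pap against WT, with a median of 0.38 beside 0.04. Limma called 0 genes of either list in InvEE against WT, where 8 of the 20 and 6 of the 15 had an unadjusted p under 0.05. The list medians there were -0.26 for the growth factors and receptors and 0.69 for the other proteoglycans, beside -0.09 for all genes. In Pap against WT Gpc1, a glypican, rose by 3.25 ± 0.26 (adjusted p = 1.74e-05), Gpc6 by 1.95 ± 0.36, Sdc1, a syndecan, by 1.24 ± 0.33, and Hspg2, perlecan, by 0.67 ± 0.16, while Gpc4 fell by 1.12 ± 0.16. Sdc1 had a difference of 1.48 ± 0.33 in InvEE against WT, not called (adjusted p = 0.0763), and of -0.24 ± 0.33 in Pap against InvEE. In Pap against InvEE 2 of the 15 were higher, Gpc1 and Hspg2, and 3 lower, Acan, Gpc4 and Cspg4. Without WT 4 and Pap 4 the growth factor list had 2 higher and 4 lower in Pap against WT, and 1 lower in InvEE against WT. The list of other proteoglycans then had 3 higher and 1 lower in Pap against WT, 1 higher in InvEE against WT, and 2 higher and 4 lower in Pap against InvEE.

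**Figure D5:**
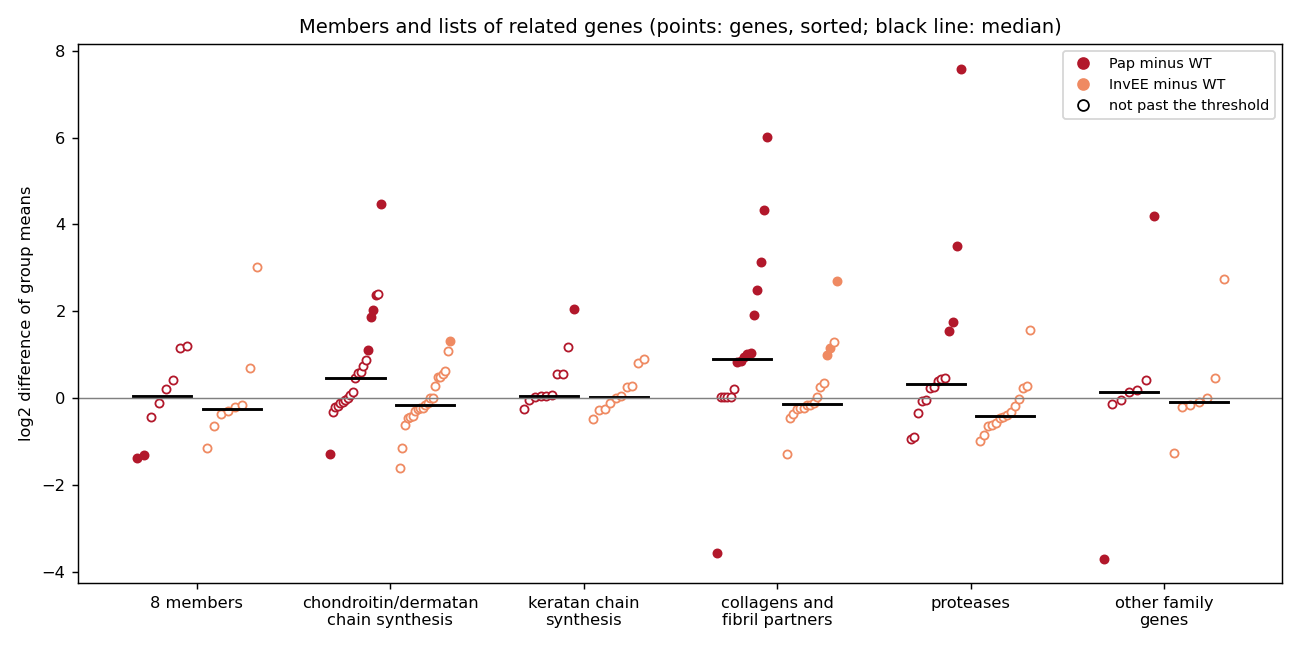
Log2 difference of each gene in Pap minus WT and InvEE minus WT, for the 8 genes and for 5 lists of related genes; points are genes sorted by value, filled where the adjusted p is under 0.05, and black lines are medians. In Pap minus WT the 8 genes have 2 filled points, both below 0, and a median of 0.05, while the collagen list has 11 filled points and a median of 0.90.

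Markers of other cells moved with the same groups, and their part in the differences above was not tested. Of 6 pericyte markers 2 were lower in Pap against WT, Kcnj8 by 16.1-fold and Abcc9 by 4.34-fold. The mean log2 level of the list lay between 7.08 and 7.52 in Pap, 7.77 and 8.08 in InvEE and 8.19 and 8.38 in WT arrays. The group means of Dcn, Prelp and Podn had the same order. Kcnj8 was also lower in InvEE against WT (-1.86 ± 0.27, adjusted p = 0.0202), a call that held in 16 of 21 alternative fits. In Pap against InvEE 3 of the 6 were lower, Kcnj8 (-2.14), Notch3 (-1.31) and Cspg4 (-1.34). The calls of Notch3 and Cspg4 held in 12 and 11 of 21 alternative fits, and that of Abcc9 in Pap against WT in 13. In Pap against InvEE the other probe set of Notch3 (-0.85) was not called, and that of Cspg4 (-0.97) was. Other markers of the list had values above 0: in Pap against WT Rgs5 and Mcam had values of 0.63 and 0.64, and in InvEE against WT Notch3, Mcam and Cspg4 had 0.80, 0.85 and 0.69, with a list median of 0.32. None of these values above 0 was called. Of 10 keratinocyte markers 2 were higher in Pap against WT, Krt14 and Dsp, and 2 in InvEE against WT, Krt15 and Perp, with list levels of 6.87 to 8.30 in Pap, 7.87 to 9.18 in InvEE and 6.55 to 7.01 in WT arrays. The other probe sets of Krt14 (0.16 to 1.66) and Dsp (0.10 to 1.95) were not called in Pap against WT. Not called there either were Krt5, Krt1, Perp and Sfn, at 0.48, 1.92, 1.24 and 0.28. The same held for Epcam, Krt15, Krt10 and Krt17, at -0.55, -0.27, -0.21 and -0.17. Krt15 was lower in Pap against InvEE (-2.16 ± 0.27). Of 8 macrophage markers 1 was lower in Pap against WT, Csf1r (-2.14 ± 0.45), while Adgre1, Ptprc and C1qa were dim in all groups. Csf1r read -1.5 and -0.48 on its remaining probe sets, with 1 call. C1qa, Ptprc and Cd14 were uncalled in Pap against WT, at 0.38, 0.13 and 0.02. Lyz2, Cd68, Adgre1 and C1qb were uncalled too, at -0.63, -0.22, -0.16 and -0.065. The median of this list was -0.11. Limma called 0 of 6 endothelial, 3 Schwann cell and 5 skeletal muscle markers in any comparison, and in Pap against WT 1, 1 and 0 of them had an unadjusted p under 0.05. Tek, Emcn and Kdr of the 6 endothelial markers had dim means in all groups. Yet Tek was at 8.39 and 7.33 in Pap 2 and Pap 3, against 4.26 and 4.58 in Pap 1 and Pap 4. Its difference in Pap against WT was 1.87 ± 0.75, not called.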

How the data were processed

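RNA of sorted fibroblasts was measured on 12 arrays, 4 per group. The deposited values are log2 signals, 1 per probe set and array, between 2.08 and 14.955. The submitters' processing notes name limma; how the arrays were background-corrected, summarized and normalized is not given in the sources used here. Quartiles differed by up to 0.284 between arrays, above the 0.1 set as the limit for quantile normalization, which was then applied. Of 45101 probe sets 64 controls were left out and 34945 with 1 symbol were kept, and the highest-mean probe set stood for each of 18193 genes. A model of 3 group means over the 12 arrays was fitted in limma 3.58.1 (R 4.3.3) with eBayes, two-sided, with Benjamini-Hochberg adjustment over all genes, and was tested on simulated data. At most 0.253% of values were identical between any 2 arrays. Levels under 6.163 are called dim. The number of arrays limits the precision.

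All 8 members are named; of each list the called genes with the smallest p are named, at most 4 in each direction, and for each member the 2 most correlated genes. Members, lists and rules were chosen with earlier results of these data known. Left-out arrays, scalings, probe sets, covariates, a replicate block, array weights and thresholds were tried as alternatives. Promoters are from RefSeq tables; protein sequences were not used here.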

Additional observations from a re-analysis of the deposited data

Results flagged for a closer look

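In 2 of the 24 combinations of a member and a group, 1 array stood apart from the other 3 by more than Dixon's 95% limit for 4 values, and both were array WT 4. Its Bgn value was 13.36, where the other WT arrays lay between 13.13 and 13.16, and its Prelp value was 12.54, where they lay between 12.06 and 12.14. Among related genes, Pap 4 stood apart for Cd44 at 12.41 (the others 10.55 to 10.82) and for Hspg2 at 12.47 (11.81 to 11.91), and Pap 2 for Slc26a1 at 5.67 (5.30 to 5.34). Of 165 combinations checked 5 stood out, and chance gives about 1 in 20. Without WT 4, Bgn in Pap against WT was 0.46 (adjusted p = 0.0401) and Prelp was -1.26 (adjusted p = 0.0621).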

How the results depend on the processing

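None of the 3 member calls held in every fit. At the threshold of the main fit, Prelp in Pap against WT was called in 17 of 26 alternatives and Podn there in 14 of 25. Bgn in Pap against InvEE was called in 24 of 27. These counts take the alternative with a threshold of 0.01 as called, although all 3 calls were lost at 0.01. The count of members called in Pap against WT, 2 as reported, was 1 with a shift by ribosomal protein genes, with the replicate block and with the Gapdh covariate, 4 with the mean of all probe sets, the spike covariate or an intensity trend, and 0 with only the 2 groups compared or a threshold of 0.01. It lay between 0 and 3 when 1 array was left out. In Pap against InvEE the count of 1 became 0 on values as deposited, with the spike covariate or at 0.01, and 2 with the ribosomal shift, the mean of all probe sets, array weights, an intensity trend or without both WT 4 and Pap 4, and lay between 0 and 2 with 1 array left out. Of all genes, 1221 were called in Pap against InvEE as reported, 3287 with the ribosomal shift, 2813 with array weights, 1721 with the mean of all probe sets, 1291 with the trend and 1770 without WT 4 and Pap 4. They were 1127 on values as deposited, 306 with the spike covariate and 396 at 0.01. For Pap against WT 1756 of all genes were called as reported, 2040 with the mean of all probe sets, 2112 with the spike covariate and 1700 with the trend. Their number was 1629 with the ribosomal shift, 1551 with the replicate block, 970 with the Gapdh covariate, 1094 with only the 2 groups compared and 757 at 0.01. In InvEE against WT the count of members called, 0 as reported, became 1 with array weights, and lay between 0 and 1 with 1 array left out. The members' median in Pap against InvEE was 0.60 with the spike covariate. The counts above 2 in Pap against WT added Dcn and Bgn, whose adjusted p over all alternatives ran from 0.0108 to 0.528 and from 0.00897 to 0.166. For Prelp, Podn and Bgn as called, it ran from 0.0111 to 0.208, from 0.00189 to 0.125 and from 0.00176 to 0.168. The cause was not tested.

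Of 633 recomputed differences, 577 kept sign and side, 26 lost a call, 20 gained one and 10 turned sign, none of these called. Those were Aspn in Pap against WT (0.09 with the ribosomal shift, 0.01 with the Gapdh covariate, -0.34 to 0.04 with 1 array left out), Dcn in Pap against InvEE (0.16 with the ribosomal shift, 0.10 with the spike covariate), Podn there (0.23 with the ribosomal shift, -0.56 to 0.06 with 1 array left out), Fmod there (0.91 with the spike covariate), and Ogn (-0.40 in InvEE against WT with the spike covariate, -0.04 in Pap against InvEE on its second probe set). The ribosomal shift moved the median of all genes by 0.21, -0.19 and 0.39 in Pap against WT, InvEE against WT and Pap against InvEE, and the higher share of called genes to 69.5%, 27.9% and 90.6%, beside 50.3%, 48.5% and 54.7%. In InvEE against WT 97 genes were called, 0 with the spike covariate or without WT 1, InvEE 1 or InvEE 2, and 839 with array weights.

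Same-numbered arrays do not pair in the labels, and their deviations correlated between -0.094 and 0.177. The replicate block left 1 member called in Pap against WT (Podn, with Prelp at an adjusted p of 0.0679), 0 in InvEE against WT and 1 in Pap against InvEE. The Gapdh covariate and the fit without WT 4 and Pap 4 were added after seeing the data.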
